A study of Mus musculus with 23 samples.

Results

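The subject here is a set of 10 mouse genes that encode aldehyde dehydrogenases, enzymes that oxidize aldehydes to carboxylic acids with NAD or NADP. They were Aldh1a1, Aldh1a7, Aldh1l1, Aldh1l2, Aldh2, Aldh3a2, Aldh4a1, Aldh6a1, Aldh7a1 and Aldh9a1, chosen by symbol from the 24029 genes of the deposited RNA table. The table holds 20 symbols of the family, and the other 10 are described further on. The 10 genes were chosen with their values in the 6 RNA libraries known, so those values are given as a description, with no test.

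RNA came from C3H10T1/2, a mouse line of the C3H strain labelled as mesenchymal stem cells, which can be turned into fat cells. Cells were taken as pre-adipocytes (day 0) or as mature adipocytes (day 7). Before differentiation, all cells were seeded at 70% confluency and received 8.3 nM human recombinant BMP7 for 3 days in medium with 10% Fetalclone III serum. From day 0 to day 2 the medium held 5 uM DEX, 0.5 mM IBMX, 0.12 ug/ml insulin, 1 uM of a compound labelled Rosi and 1 nM T3. From day 2 to day 7 it held insulin, Rosi and T3 at those concentrations. The 6 groups of 1 library each were standard day 0, standard day 7, TELP N9 day 0, TELP N9 day 7, TELP N9_ss day 7 and TELP T18 day 7. The standard libraries were made from oligo(dT)-selected mRNA and the others by TELP, the procedure under study. N9, ss and T18 are left unexplained by the labels, and nothing says that the libraries came from separate cultures. The other 17 of the 23 samples are chromatin libraries and were not analysed here.

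Aldehydes arise in fat cells from retinoids, amino acids, carnitine synthesis, fatty alcohols and peroxidized lipids. Members of this family differ in the aldehyde they take and in where they act. Aldh1a1 makes retinoic acid from retinal in the cytosol, and mice without it are known to resist fat gain on a rich diet. Aldh2, Aldh4a1 and Aldh6a1 act in mitochondria on acetaldehyde, on a proline intermediate and on a valine intermediate.

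Values are RPKM, reads scaled to gene length and read total, so levels of different genes can be set side by side within a library. Depth was estimated from the steps between low values, at about 14400000 and 14200000 reads for the standard libraries (day 0, day 7) and 22700000 for N9 at day 0. Shallower were N9, N9_ss and T18 at day 7, with about 5510000, 5760000 and 4770000. All 8 adipocyte markers examined were higher at day 7 in both library types, and their summed level was 33.7 to 43.4 RPKM at day 0 and 5180 to 33000 at day 7. Summed preadipocyte markers stood at 106 to 114 RPKM at day 0, mostly Pdgfra, and 4.19 to 64.4 at day 7, with 3 of 5 called lower in both types. Pdgfra itself went from 80.8 to 52.0 RPKM (standard) and from 66.6 to 4.65 (N9). Zfp423 went the other way, from 3.03 to 5.63 RPKM (standard) and from 4.28 to 6.37 (N9). Brown fat markers, mostly Cidea, summed to at most 0.194 RPKM at day 0 and 1.14 to 53.8 at day 7. Ucp1 was listed at 0 except in N9 (0.882 RPKM) and N9_ss (0.843 RPKM) of day 7. Markers of macrophages and leukocytes summed to 0.480 to 1.06 RPKM at day 0 and 0.513 to 4.70 at day 7, with Cd68 the largest term in each library, and Ptprc was at or under 0.0421 in every library. Summed endothelial markers, mostly Tek, were at 9.58 to 11.3 RPKM at day 0 and at most 1.40 at day 7. Muscle markers, mostly Acta1, summed to 11.9 to 36.6 RPKM at day 0 and 1.63 to 8.82 at day 7, and chondrocyte markers to 4.38 to 5.45 and 0.139 to 0.602. Osteoblast markers summed to at most 1.42 RPKM and epithelial and hepatic markers to at most 0.313 in any library, with Ibsp, Alb and Epcam listed at 0 in all. In bulk RNA, fewer cells of a type and less RNA per cell cannot be told apart. The part of any of these markers in the results was not tested.

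Aldh1a1 and Aldh1a7 are the closest pair of the set. Aldh1a7 is a rodent paralog of Aldh1a1, and in the RefSeq annotation of GRCm38.p6 they are neighbours on chromosome 19, with 3 genes between them, of which 0 code for protein. Promoter windows were taken from RefSeq (GRCm38.p6, 250 bases before to 50 after each annotated start) and 7 of the 10 genes had an entry. Both windows are shown because they share an identical run of 65 bases at the same distance from the start, beginning at position -94 from it and printed in capitals. The Aldh1a1 window is chr19:20601718-20602017 on the plus strand and the Aldh1a7 window chr19:20727507-20727806 on the minus strand.
Aldh1a1: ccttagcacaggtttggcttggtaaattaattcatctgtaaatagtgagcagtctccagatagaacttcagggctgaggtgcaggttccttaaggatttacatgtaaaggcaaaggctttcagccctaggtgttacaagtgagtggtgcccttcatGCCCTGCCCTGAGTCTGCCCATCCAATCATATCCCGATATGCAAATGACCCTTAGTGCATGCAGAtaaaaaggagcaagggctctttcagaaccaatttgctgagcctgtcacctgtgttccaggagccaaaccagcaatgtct
Aldh1a7: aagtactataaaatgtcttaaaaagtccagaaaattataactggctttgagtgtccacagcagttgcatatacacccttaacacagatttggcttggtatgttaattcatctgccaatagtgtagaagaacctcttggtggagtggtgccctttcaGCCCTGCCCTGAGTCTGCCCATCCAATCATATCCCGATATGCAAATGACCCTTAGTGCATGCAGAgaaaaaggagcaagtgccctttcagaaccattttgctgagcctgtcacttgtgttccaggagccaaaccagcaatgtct
In a global alignment 224 of 282 aligned base pairs were identical (79.4%). Aldh1a1 has a second annotated start, at whose window the longest run shared with Aldh1a7 was 8 bases.

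Motifs were searched on both strands of the 9 windows of these genes, and the same search was made over all 32851 promoter windows of 300 bases. CCAAT was found in 8 of 9 windows and in 37.4% of all windows. AGGTCA, the core of nuclear receptor sites such as those of PPARG, was found in 2 of 9 and in 16.3% of all. TTGCNNAA, a C/EBP-like motif, was in 2 of 9 against 10.8%. TGACNNNGC, the core of the antioxidant response element, was in 1 of 9 against 12.4%, GGGCGG in 2 of 9 against 35.7% and TATAAA in 1 of 9 against 13.6%. The searched motifs may overlap in place, and several windows belong to the same gene, so these are descriptions. The windows with the most CCAAT matches were those of Aldh6a1, with 4, and Aldh4a1, with 3, and are shown with the matches of either strand in capitals. They lie at chr12:84450975-84451274 on the minus strand and chr4:139622644-139622943 on the plus strand.
Aldh6a1: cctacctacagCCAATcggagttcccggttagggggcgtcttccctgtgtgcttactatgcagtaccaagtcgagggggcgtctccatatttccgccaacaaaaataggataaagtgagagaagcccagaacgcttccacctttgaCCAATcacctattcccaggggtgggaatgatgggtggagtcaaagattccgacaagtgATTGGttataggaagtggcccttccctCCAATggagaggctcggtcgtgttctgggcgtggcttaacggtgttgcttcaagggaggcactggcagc
Aldh4a1: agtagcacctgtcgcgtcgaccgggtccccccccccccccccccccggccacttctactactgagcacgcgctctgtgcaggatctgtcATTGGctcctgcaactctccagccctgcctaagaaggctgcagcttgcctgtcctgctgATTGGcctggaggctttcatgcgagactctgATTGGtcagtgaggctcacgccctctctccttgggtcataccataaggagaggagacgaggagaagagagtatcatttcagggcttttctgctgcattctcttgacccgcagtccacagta
In the pair of Aldh1a1 and Aldh1a7 the CCAAT that begins at position -72 in each lies inside the shared run.

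The first comparison asked how the 10 genes differed between adipocytes and pre-adipocytes. Aldh1a1, Aldh1a7, Aldh6a1, Aldh9a1 and Aldh1l2 were higher at day 7 in both the standard and the N9 pair, and 0 members were called lower in either. Differences were taken on log2(RPKM + 1), which understates the change of low genes, and a gene was called at an absolute difference of at least 1. Only genes whose mean over the 4 standard and N9 libraries reached 1 RPKM were kept, among them 9 of the 10 members. The exception was Aldh1l1, at a mean of 0.843 RPKM. Called higher were 5 members in the standard libraries, 6 in TELP N9 and 5 in both. Over all 11474 genes kept, 8.3% were called higher in the standard libraries, 13.5% in TELP N9 and 7.23% in both, but the members were chosen on these values, so nothing is read from the comparison. Called lower were 6.45%, 29.8% and 5.81% of all genes. In the N9 pair the shares called higher and lower were 19.8% and 17.4% by median of ratios, and 9.28% and 45.1% with totals made equal. All genes kept had a median of -0.17 (standard) and -0.46 (N9), and scaling by the median of ratios moved it to -0.04 and 0.01. For the members in this comparison, differences relative to that median are given where the call or the direction depends on it. In the later comparisons they are given for some genes only.

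**Figure D1:**
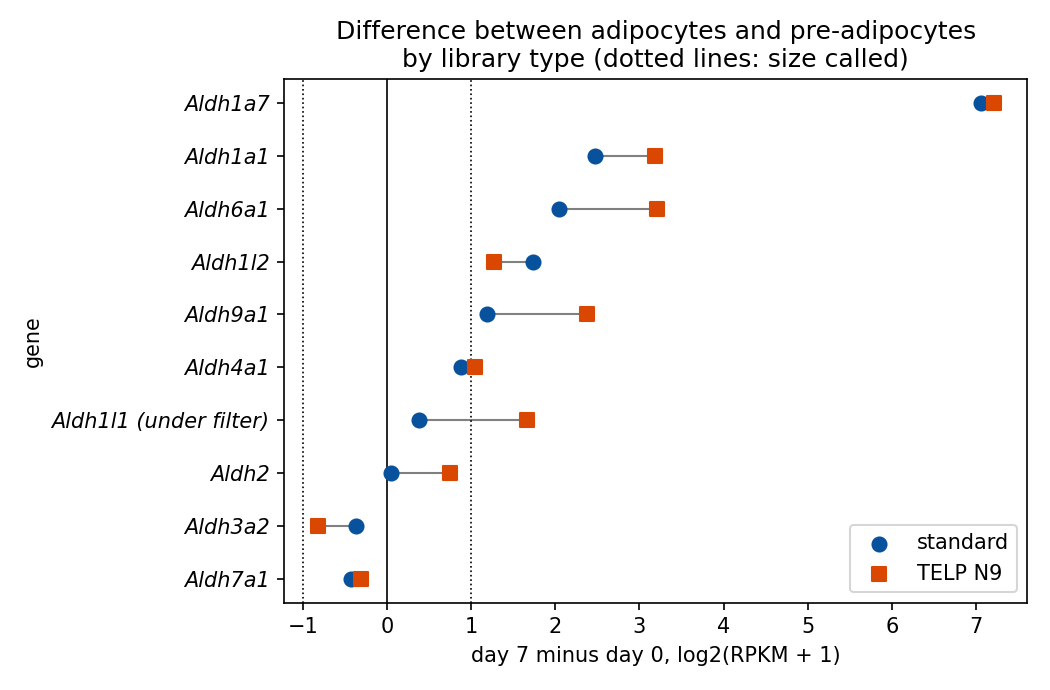
Day 7 minus day 0 of each aldehyde dehydrogenase gene on log2(RPKM + 1), in the standard libraries (circles) and in TELP N9 (squares), 1 library per point and day. Dotted lines mark the size called. Aldh1a7 stands at 7.06 and 7.21, and the symbols of Aldh6a1, Aldh9a1 and the unfiltered Aldh1l1 lie more than 1 unit apart.

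Of the pair of Aldh1a1 and Aldh1a7, Aldh1a7 had the largest difference among the 10 genes in both library types. It was at 0.617 (standard) and 0.380 RPKM (N9) at day 0, and at 214 (standard), 204 (N9), 211 (N9_ss) and 43.3 RPKM (T18) at day 7. All 4 day 7 libraries lay far above both day 0 libraries, which were under 1 RPKM. N9 and N9_ss are not independent of each other, so here and for the genes below N9_ss adds no separate support. The difference was 7.06 (standard) and 7.21 (N9), a linear ratio of 347 and 535. At day 0 the values rest on 8.89 and 8.62 reads per kilobase of transcript, so the linear ratios are imprecise. By level, Aldh1a7 moved from rank 11661 of all genes to rank 220 (standard) and from 12379 to 342 (N9). At day 7 it was the most abundant of the 10 genes in the standard, N9 and N9_ss libraries, and second to Aldh6a1 in T18.

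Aldh1a1, a retinaldehyde dehydrogenase, was at 0.323 (standard) and 0.241 RPKM (N9) at day 0. At day 7 it was at 6.34 (standard), 10.3 (N9), 10.0 (N9_ss) and 1.61 RPKM (T18). All 4 day 7 libraries lay above both day 0 libraries. It was higher by 2.47 (standard) and 3.19 (N9), resting on 4.65 and 5.47 reads per kilobase at day 0. The sum of Aldh1a1 and Aldh1a7 was 0.940 and 0.622 RPKM at day 0 and 221, 214, 221 and 44.9 in standard, N9, N9_ss and T18 at day 7. Aldh1a7 held 65.7% and 61.2% of that sum at day 0 and 95.2% to 97.1% in the 4 day 7 libraries. How the authors' counting treated reads common to both genes is not given in the sources used here, so the split between them is uncertain, and whole reads could not be recovered from the values of either gene.

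Among mitochondrial amino acid enzymes, Aldh6a1, the methylmalonate semialdehyde dehydrogenase of valine and thymine breakdown, was higher at day 7. It was at 20.5 (standard) and 18.2 RPKM (N9) at day 0, and at 87.6 (standard), 176 (N9), 184 (N9_ss) and 45.3 RPKM (T18) at day 7. The day 0 libraries did not overlap with those of day 7, T18 being the lowest of the latter. Differences were 2.04 and 3.21, linear ratios of 4.27 and 9.69.

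Aldh4a1 oxidizes the pyrroline carboxylate that proline breakdown yields, and lay at the edge of the call. It was at 4.08 (standard) and 3.26 RPKM (N9) at day 0, and at 8.32 (standard), 7.84 (N9), 7.71 (N9_ss) and 2.73 RPKM (T18) at day 7. The standard, N9 and N9_ss libraries of day 7 lay above both day 0 libraries, and T18 lay below both. Differences were 0.88 in the standard libraries, under the size called, and 1.05 in TELP N9 (0.62 with totals made equal), and relative to the median of all genes 1.05 and 1.51. Whole reads could be recovered for this gene, as 185 and 372 at day 0 and day 7 (standard) and 233 and 136 (N9). Scaled to depth, the ratios of day 7 to day 0 were 2.04 (1.71 to 2.45) and 2.40 (1.93 to 2.98), with exact 95% intervals that cover counting error only.

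Aldh7a1, which takes the semialdehyde formed in lysine breakdown, was not called in either type. It was at 12.2 (standard) and 7.14 RPKM (N9) at day 0, and at 8.76 (standard), 5.56 (N9), 6.26 (N9_ss) and 1.21 RPKM (T18) at day 7. The days overlapped, since standard day 7 lay above TELP N9 day 0. Differences were -0.43 and -0.31, and relative to the median of all genes -0.26 and 0.14, so the direction in TELP N9 depends on the scaling (0.14 under median of ratios, 0.19 under quantiles and -0.75 with totals made equal).

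Aldh9a1 oxidizes trimethylaminobutyraldehyde, a step in carnitine synthesis, and carnitine carries fatty acids into mitochondria. It was at 25.7 (standard) and 25.6 RPKM (N9) at day 0, and at 59.8 (standard), 137 (N9), 141 (N9_ss) and 22.1 RPKM (T18) at day 7. The standard, N9 and N9_ss libraries of day 7 lay above both day 0 libraries, and T18 lay just below them. It was higher by 1.19 (standard) and by 2.38 (N9).

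Aldh1l1 and Aldh1l2 are the cytosolic and the mitochondrial formyltetrahydrofolate dehydrogenase of folate metabolism. Aldh1l2 was at 4.73 (standard) and 4.05 RPKM (N9) at day 0, and at 17.96 (standard), 11.2 (N9), 11.1 (N9_ss) and 0.468 RPKM (T18) at day 7. Apart from T18, which was the lowest of all 6, the day 7 libraries lay above both day 0 libraries. Its differences were 1.73 and 1.27, and as deposited it was the only one of the 5 genes called in both types whose difference was smaller in TELP N9. With totals made equal its N9 difference was 0.82 and its call was lost, and Aldh1a7 was smaller in N9 as well (6.85 against 7.34), as it was under quantiles (6.97 against 7.26).

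Aldh1l1 was the least abundant of the 10 genes in every library but T18. It was at 0.0482 (standard) and 0.184 RPKM (N9) at day 0, and at 0.367 (standard), 2.77 (N9), 3.25 (N9_ss) and 4.66 RPKM (T18) at day 7. All day 7 libraries lay above both day 0 libraries. Recovered whole reads were 2 and 15 in the standard libraries, 12 and 44 in TELP N9, 54 in N9_ss and 64 in T18. Scaled to depth, day 7 to day 0 gave a ratio of 7.61 (1.77 to 68.6) (standard) and 15.1 (7.83 to 31.4) (N9), with counting intervals as above. It lay under the filter and received no call.

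Aldh2 and Aldh3a2, which handle acetaldehyde and long-chain fatty aldehydes, were not called in either type. Aldh2 was the most abundant of the 10 genes at day 0. It was at 86.4 (standard) and 98.5 RPKM (N9) at day 0, and at 89.4 (standard), 166 (N9), 179 (N9_ss) and 12.1 RPKM (T18) at day 7. Standard day 7 lay between the day 0 libraries, N9 and N9_ss above them and T18 below. Its differences were 0.05 and 0.75, and relative to the median of all genes 0.22 and 1.21. After median of ratios scaling the N9 difference was 1.28, past the size called. With totals made equal it was 0.24 and under quantiles 0.49, both under that size. Aldh3a2, the fatty aldehyde dehydrogenase of the endoplasmic reticulum whose loss causes Sjögren-Larsson syndrome in humans, was at 21.3 (standard) and 19.2 RPKM (N9) at day 0, and at 16.2 (standard), 10.4 (N9), 10.4 (N9_ss) and 1.89 RPKM (T18) at day 7. All day 7 libraries lay below both day 0 libraries, with differences of -0.37 and -0.82, which did not reach the size called as deposited. In N9 29.8% of all genes were called lower, and 85.0% with T18 in its place. Relative to the median of all genes the differences of Aldh3a2 were -0.20 and -0.37. Its N9 difference was -0.32 by median of ratios and -0.51 under quantiles, and only with totals made equal, at -1.30, past the size called.

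**Figure D2:**
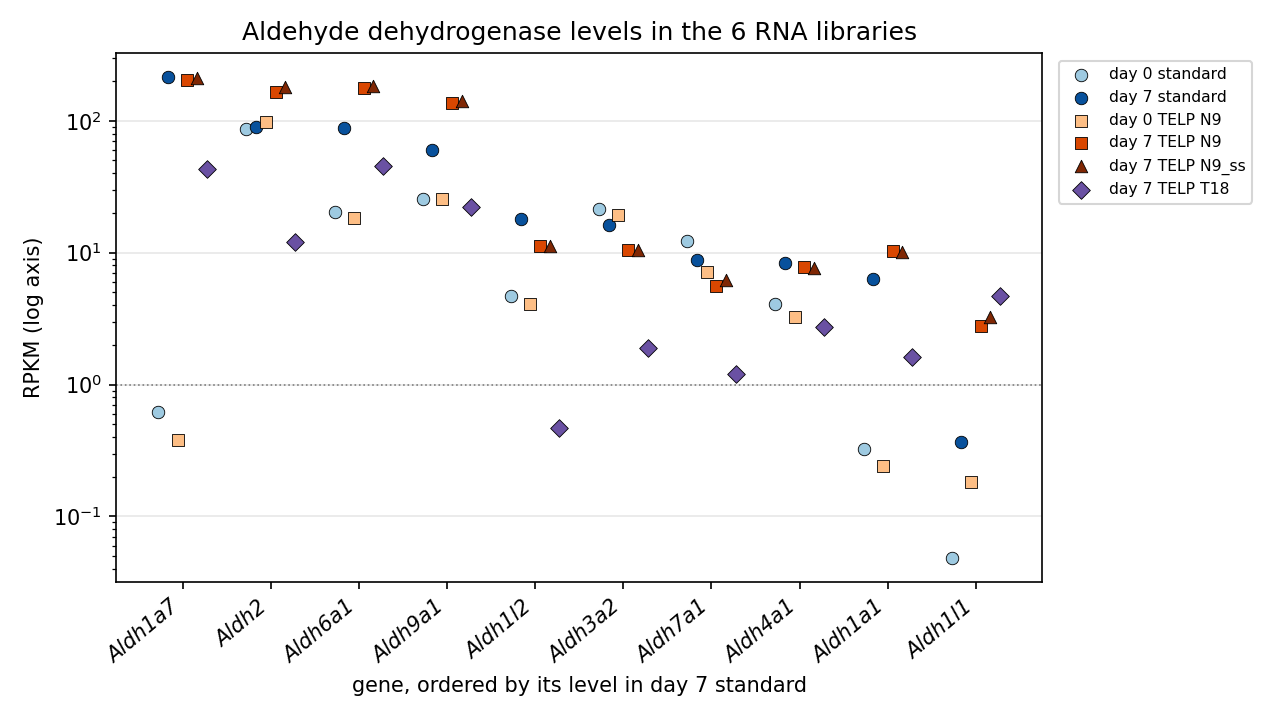
RPKM of the 10 aldehyde dehydrogenase genes in the 6 RNA libraries on a log axis, genes ordered by their level in standard day 7, 1 point per library. Aldh1a7 spans from 0.380 to 214 RPKM, while the standard values of Aldh2 at day 0 and day 7 nearly coincide at 86.4 and 89.4.

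The order of levels was the same in both day 0 libraries and changed by day 7. At day 0 it ran Aldh2, Aldh9a1, Aldh3a2, Aldh6a1, Aldh7a1, Aldh1l2, Aldh4a1, Aldh1a7, Aldh1a1 and Aldh1l1. In that order Aldh3a2 and Aldh6a1 were close neighbours, at 21.3 and 20.5 RPKM in the standard and 19.2 and 18.2 in the TELP N9 library, and without replicates no spread can be set against these gaps. At standard day 7 it ran Aldh1a7, Aldh2, Aldh6a1, Aldh9a1, Aldh1l2, Aldh3a2, Aldh7a1, Aldh4a1, Aldh1a1 and Aldh1l1. Aldh2 and Aldh6a1 were close there, at 89.4 and 87.6 RPKM, and stood in the reverse order in N9, at 166 and 176. Summed over the 10 genes, the level was 176 and 177 RPKM at day 0, 509 in standard day 7, 732 in N9, 764 in N9_ss and 135 in T18. As a share of all RPKM in the library the sum was 0.0509% and 0.0432% at day 0 and 0.149% (standard), 0.125% (N9), 0.131% (N9_ss) and 0.0233% (T18) at day 7, so on this scale standard day 7 stood above N9. Aldh2 held 49.1% and 55.7% of the sum at day 0 and 17.6% to 23.4% in the standard, N9 and N9_ss libraries of day 7. Aldh1a7 went from 0.351% and 0.215% to 42.1% in standard day 7 and 27.8% in N9 day 7. The share of Aldh3a2 was 12.1% and 10.8% at day 0 and 1.36% to 3.19% at day 7.

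**Figure D3:**
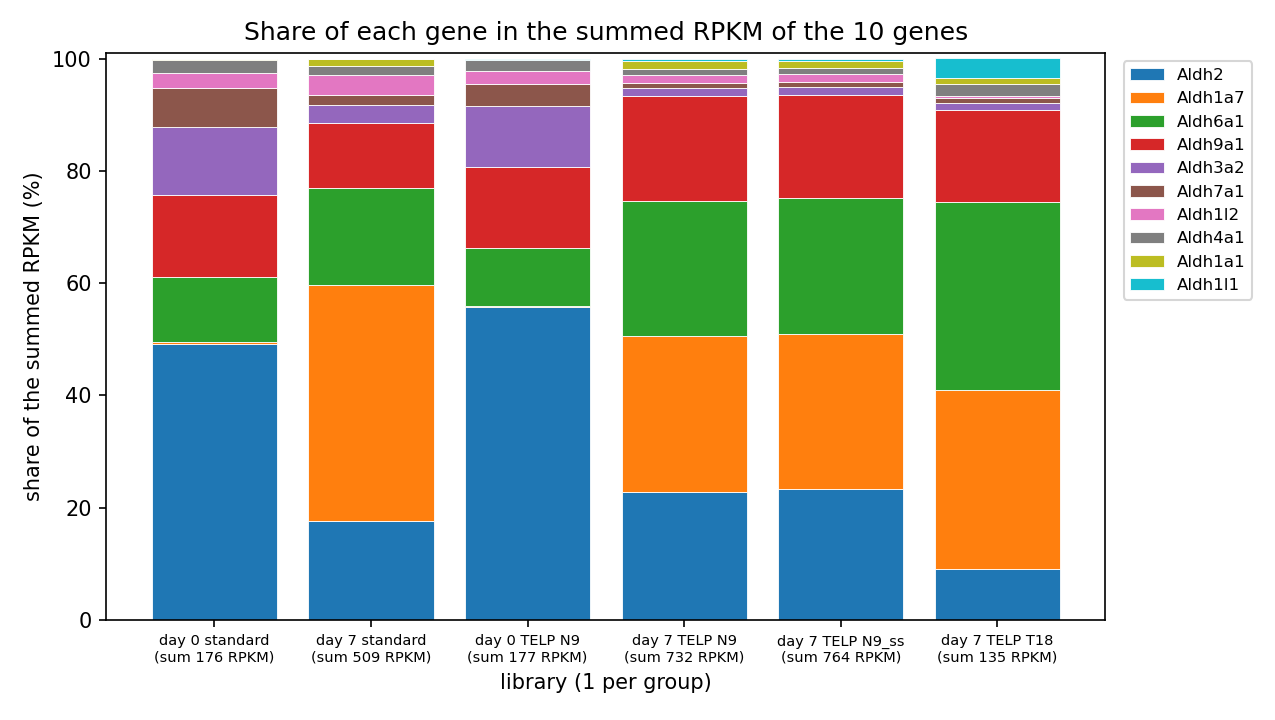
Share of each aldehyde dehydrogenase gene in the summed RPKM of the 10 genes, 1 bar per library, in percent, with the sum under each bar. Aldh2 fills 49.1% and 55.7% of the day 0 bars, and Aldh1a7 42.1% of the standard and 27.8% of the N9 bar of day 7.

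The second comparison set the library types against each other. It uses the same 4 libraries as the first comparison. At day 0 there were 0 of the 9 members kept called, against 2.76% of all genes (2.05% higher, 0.715% lower). Differences (TELP N9 minus standard) ran from -0.69 for Aldh7a1 to 0.19 for Aldh2, which includes Aldh1l1 at 0.18. On the linear scale N9 over standard was 3.81 for Aldh1l1, from 2 reads in standard and 12 in N9, 0.588 for Aldh7a1 and 0.616 for Aldh1a7. At day 7 Aldh9a1 (1.19) and Aldh6a1 (1.00) were higher in TELP N9, 2 of the 9 kept, against 7.0% of all genes called higher, 16.7% lower and 23.7% in either direction. After median of ratios scaling 12.1% were higher and 9.94% lower, and with totals made equal 2.24% and 43.9%. Aldh2 followed at 0.89, or 1.13 relative to the median of all genes, and Aldh1a1 at 0.62. The largest difference of the 10 genes was that of Aldh1l1, at 1.46, from 15 reads in standard and 44 in N9, but it lay under the filter. With no filter 3 members were called, where 3.53% of all genes were higher and 8.1% lower. Aldh1a7 (-0.07) and Aldh4a1 (-0.08) differed little, and Aldh1l2 (-0.64), Aldh3a2 (-0.60) and Aldh7a1 (-0.57) were lower without a call as deposited. With totals made equal the calls changed hands: Aldh1l2 (-1.36), Aldh3a2 (-1.32) and Aldh7a1 (-1.26) were called lower, while Aldh9a1 (0.42) and Aldh6a1 (0.23) were not called. Under quantiles Aldh9a1 (0.99) and Aldh6a1 (0.71) were not called either, and under median of ratios Aldh2 (1.24) was called beside them. The day 7 against day 0 difference was larger in TELP N9 than in the standard libraries by 1.19 for Aldh9a1 and by 1.16 for Aldh6a1, and of all genes 5.99% differed by 1 or more upward, 17.2% downward and 23.2% in either direction. By median of ratios 10.9% differed upward and 10.0% downward, and with totals made equal 2.62% and 32.9%. The difference was untested, because each library type has 1 library a day, and under equal totals neither gene reached 1 (0.66 and 0.63). Under quantiles Aldh6a1 did not either (0.90). Other members reached 1 in some settings. These were Aldh2 under median of ratios (1.08), and Aldh1a1 under quantiles (1.00) and at a pseudocount of 0.1 RPKM (1.00). With no filter Aldh1l1 did as well (1.29).

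The third comparison was among the TELP libraries of day 7. In N9_ss and N9 the 10 genes lay close. Differences (N9_ss minus N9) ran from -0.03 for Aldh1a1 to 0.17 for Aldh1l1 and 0 of 10 were called, against 0.029% of all 10334 genes kept (0.0194% higher, 0.00968% lower). Of 3609 genes above 0 and under 1 RPKM in both columns, 2985 stood in a single ratio to within 2e-05 on the natural log scale. The columns are therefore not independent, and N9_ss adds no separate support where day 7 libraries are counted.

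Most of the 10 genes were lower in T18 than in N9, as were most genes of the table. As deposited, 9 of 10 were called lower and 0 higher, where 83.4% of all 9753 genes were called lower, 0.841% higher and 84.2% in either direction, with a median of -1.77. Under median of ratios scaling, which moved the median of all genes to -0.05 and the shares called to 13.4% higher and 15.2% lower, Aldh4a1, Aldh6a1 and Aldh7a1 turned to 0.64, 0.27 and 0.02, and 3 members were called. Those were Aldh1l2 and Aldh2, lower, and Aldh1l1, higher. Aldh2 was at -3.67 as deposited and -1.90 relative to the median of all genes. For Aldh1l2 the values were -3.05 and -1.29, and T18 holds only 2.23 reads per kilobase of this gene. Aldh1l1 went the other way at 0.59, or 2.35 relative to the median, with 64 reads in T18 and 44 in N9, a depth-scaled ratio of 1.68 (1.13 to 2.53, counting error only).

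**Figure D4:**
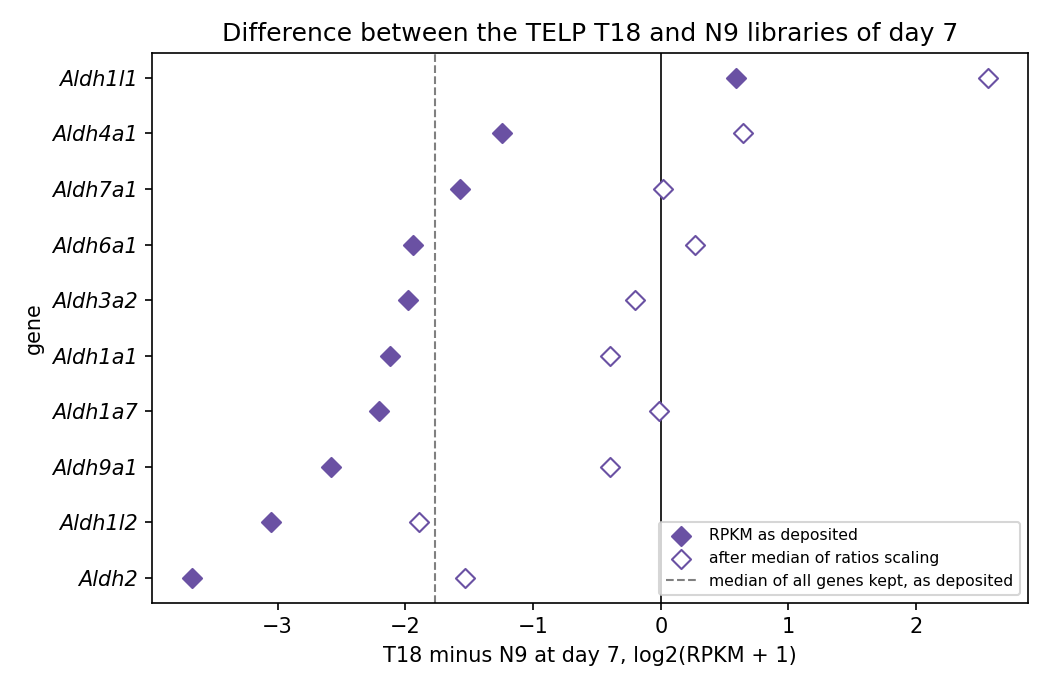
T18 minus N9 at day 7 of each aldehyde dehydrogenase gene on log2(RPKM + 1), as deposited (filled) and after median of ratios scaling (open), 1 library each. The dashed line is the median of all genes as deposited, -1.77, and Aldh1l1 is the 1 gene above 0 on both scales, at 0.59 as deposited.

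The other 10 family genes in the table varied as well, and Aldh3b2 differed most between the days. Aldh3b2, a fatty aldehyde dehydrogenase, was at 0.0769 (standard) and 0.143 RPKM (N9) at day 0, and at 11.96 (standard), 64.3 (N9), 64.1 (N9_ss) and 5.23 RPKM (T18) at day 7. All day 7 libraries lay above both day 0 libraries, with differences of 3.59 and 5.84. Its close copies can share reads with it, so this value is uncertain. Among these copies Aldh3b1 differed by -0.17 and -0.16. Aldh3a1, a cytosolic enzyme best known from the cornea, went from 7.06 to 3.14 RPKM (standard) and from 5.10 to 0.130 RPKM (N9). The differences were -0.96 and -2.43. Its N9 value at day 7 rests on 0.719 reads per kilobase, so the second is imprecise. T18 stood at 1.06 RPKM, above N9 of day 7 and below both day 0 libraries. Aldh5a1, the succinate semialdehyde dehydrogenase of GABA breakdown, differed by 0.79 and 1.23. Aldh16a1 (-0.19 and -0.31) and Aldh18a1 (-0.27 and -0.82), which makes pyrroline carboxylate for proline synthesis, were not called. Of the retinaldehyde dehydrogenases beside Aldh1a1, Aldh1a2 was listed at 0 in all 6 libraries, and Aldh1a3 rested on 5 and 1 reads in the standard and 20 and 1 in the TELP N9 libraries. Aldh1b1 and Aldh8a1 had at most 2 reads in any library. Of these 10 genes 6 were kept, of which 1 was called higher and 0 lower in both types, where all genes had 7.23% and 5.81%.

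Genes that work beside these enzymes were then examined in lists chosen with earlier results of these data known. Most enzymes of valine and propionate breakdown, the pathway of Aldh6a1, were higher at day 7. Of 15 genes kept, 9 were higher in both types, as were 7.23% of all genes, and 0 lower in either, with medians of 1.23 and 2.07 where all genes had -0.17 and -0.46. Bckdhb, a subunit of the branched-chain ketoacid dehydrogenase, went from 15.6 to 107 RPKM (standard) and from 14.0 to 163 RPKM (N9). Hibadh, the enzyme that makes the substrate of Aldh6a1, differed by 2.05 and 2.75, Bcat2 by 2.24 and 2.54 and Bckdha by 1.48 and 3.06.

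Retinoid genes, the setting of Aldh1a1, went both ways. Of 16 kept, 4 were higher and 3 lower in both types, where all genes had 7.23% higher and 5.81% lower, with medians of 0.16 and 0.45. Dhrs3, which reduces retinal back to retinol, went from 1.88 to 23.6 RPKM (standard) and from 2.39 to 68.1 RPKM (N9). Retsat, which saturates retinol, differed by 2.27 and 3.42. Rxrg, a retinoid X receptor, went from listed at 0 to 4.12 RPKM (standard) and from 0.0229 to 4.34 RPKM (N9). Crabp2, a carrier of retinoic acid, differed by -2.19 and -3.13.

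Lists around the other members follow, with 7.23% of all genes higher and 5.81% lower in both types. In N9, whether or not also lower in the standard pair, 29.8% of all genes were lower. Of 17 folate genes kept, the setting of Aldh1l1 and Aldh1l2, 2 were higher in both types, 0 lower in both and 2 lower in N9 alone. The 2 higher were Gcsh of the glycine cleavage system (1.54 and 1.33) and the mitochondrial Mthfd2 (1.09 and 1.27), while the list's medians were 0.20 and -0.50. Equal totals scaling left 0 of them called in both. Of 9 proline, ornithine and glutamate genes, the setting of Aldh4a1, Glul, the glutamine synthetase, was the only one called in both types, at 1.95 and 3.27, and 3 were lower in N9 alone, with list medians of 0.07 and -0.55. Of 6 genes of lysine breakdown and carnitine synthesis kept, around Aldh7a1 and Aldh9a1, 0 were called in both types and 2 were lower in N9 alone, and medians were 0.31 and 0.12.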

How the data were processed

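RNA was analysed in 6 libraries, grouped by their titles, 1 library per group. The authors deposited RPKM values for 24029 genes, with 1 column per library. Bowtie2, TopHat, Cufflinks and the mm9 build are named per the submitters' processing notes, without versions or settings, and how strands were treated is not stated there. Gene coordinates are left out since the RefSeq tables are of GRCm38.p6. All 10 symbols matched a list of current mouse names.

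Relative depth came from the modal ratio of low values between libraries, and its absolute scale from short RefSeq genes, of which 62 of 1105 lay at a common depth after 204 bases were deducted. It is therefore approximate. Whole reads were sought per gene as the smallest whole numbers that matched all 6 values (within 0.04 of a read at low counts), for transcripts under 6000 bases, and no count test was run. The labels name no molecular identifiers, so intervals (exact, 95%) cover counting error only.

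Differences used a pseudocount of 1 RPKM, a filter at a mean of 1 RPKM (over the 4 standard and TELP N9 libraries, or the pair for N9_ss and T18) and a call at 1 log2 unit. No test was made, since each group has 1 library and members and lists were chosen with earlier results of these data known. Named were all family genes and, per list, up to 4 genes called in both types, by largest mean difference, and those called in opposite directions. Calls and read recovery were also run on simulated data with counting error only. Those data held no effect of library type or scaling, so they cannot show how such effects move the calls here. Promoter windows are from RefSeq. Python 3.11.15, numpy 2.4.6, pandas 2.3.3, scipy 1.17.1, biopython 1.88 and matplotlib 3.10.9 were used.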

Additional observations from a re-analysis of the deposited data

How the results depend on the processing

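Results were recomputed at a pseudocount of 0.1 RPKM, with the filter dropped or raised to 5 RPKM, with scaling by median of ratios, equal totals or quantiles, Aldh1a1 and Aldh1a7 summed, and N9_ss or T18 in place of N9. List counts under these settings were added after seeing the data, and 4 of them moved by over 1.5 times: other family genes from 1 to 2 (pseudocount 0.1 RPKM), retinoid genes from 4 to 2 and fatty aldehyde genes from 5 to 3 (filter at 5 RPKM), and folate genes from 2 to 0 (equal totals). The count of members higher in both types was 4 to 6 except with T18 in place of N9, where it was 3. With T18, 9 members were called between TELP and standard at day 7, and 9 differed by type in their day difference. Of all genes 85.4% were then lower and 1.02% higher than standard at day 7, and 88.5% and 1.21% in the day difference. Aldh1l1, which passed the filter there, went up (4.66 RPKM in T18, 0.367 in standard day 7), and the other members called went down. With T18 the TELP day difference of Aldh1l2 turned to -1.78, Aldh4a1 to -0.19 and Aldh9a1 to -0.20. The day 7 difference from standard turned to -0.94 for Aldh6a1 and -1.40 for Aldh9a1, and their differences of day differences to -0.77 and -1.39. Members called in T18 against N9 fell from 9 to 3 under median of ratios and quantiles. There Aldh4a1 turned to 0.64 and 0.69, Aldh6a1 to 0.27 and 0.13, and Aldh7a1 to 0.02 and 0.12. Under equal totals 0 members, in place of 2, differed between types in their day difference. Under quantiles 0 members, in place of 2, were called at day 7 between types. The cause of these shifts was not tested. At a pseudocount of 0.1 RPKM Aldh4a1 was called in both types, which made 6. No paired analysis was possible because the RNA libraries carry no replicate numbers. Depth limits the low values: Aldh1l1 at standard day 0 rests on 0.694 reads per kilobase, Aldh1l2 in T18 on 2.23, and Aldh1l1 at N9 day 0 on 4.17.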

Other observations

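Of 14 enzymes kept that make fatty aldehydes or handle lipid peroxidation products, 5 were higher at day 7 in both library types, as were 7.23% of all genes. Lower were 0 in both types and 2 in N9 alone, where 5.81% of all genes were lower in both and 29.8% in N9. The list's medians were 0.50 and 1.23. Cyp2e1, a cytochrome that oxidizes ethanol and fatty acids, went from 0.00566 to 15.4 RPKM (standard) and from 0.0105 to 40.3 RPKM (N9). Its day 0 values lie near the floor, so the size of its change is imprecise. Hacl1, which cleaves branched fatty acids in peroxisomes to a fatty aldehyde, differed by 1.89 and 2.44. Agmo, which cleaves ether lipids to fatty aldehydes, differed by 1.90 in both, and Cyp4b1 was listed at 0 at day 0 and stood at 1.63 (standard) and 4.96 RPKM (N9) at day 7, and was again listed at 0 in T18.

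Of 12 alcohol dehydrogenases and aldehyde reductases kept, 3 were higher in both types and 0 lower in both. In N9 2 were lower, Adh1 among them. Of all genes, 7.23% were higher in both types, 5.81% lower in both and 29.8% lower in N9. The list's medians were 0.70 and 0.78, where all genes had -0.17 and -0.46. Adhfe1, which oxidizes hydroxybutyrate to a semialdehyde, differed by 2.77 and 4.27, Cbr3 by 1.83 and 2.59 and Akr1b10 by 1.08 and 1.47. Adh1, an alcohol dehydrogenase that oxidizes retinol and ethanol, went in opposite directions, as 0.218% of all genes kept did. Its standard values were 12.2 RPKM at day 0 and 26.2 at day 7, while the TELP values were 12.5 at day 0 and 1.93 (N9), 1.84 (N9_ss) and 2.41 RPKM (T18) at day 7.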
